A study of Mus musculus with 6 samples.

Results

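The transcripts described here belong to 10 genes of mitophagy and autophagy, *Bnip3*, *Bnip3l*, *Pink1*, *Park2*, *Fundc1*, *Sqstm1*, *Map1lc3b*, *Gabarapl1*, *Ulk1* and *Tfeb*, of 24422 genes counted in whole mouse kidneys. They were chosen by name for their role and not picked by a rule on their values, though with earlier results of these data known. All 10 were counted in every library and tested. The kidneys came from C57BL/6 mice at postnatal day 13 that had an iron sufficient diet with 220 ppm iron. There were 3 Control kidneys, labelled wild type, and 3 TfR1 knockout kidneys with the genotype Tfr1f/f;SixCre, in which the transferrin receptor *Tfrc* (TfR1), the gate for transferrin-bound iron, was targeted with Six2Cre. Exons 3 and 4 were floxed, and the recombinase is active in the progenitors of the nephron, so stroma, vessels and ureteric bud derivatives are not targeted. The study also describes TfR1+ tubule cells that had escaped the deletion. In these whole-kidney RNA samples, fewer cells of a type and less RNA per cell cannot be told apart.

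Autophagy encloses cytoplasm in a double membrane, the autophagosome, and delivers it to the lysosome. Ulk1 is the kinase that starts the process, Map1lc3b (LC3B) and Gabarapl1 are ubiquitin-like proteins attached to the growing membrane, and Sqstm1 (p62) ties ubiquitinated cargo to them. Mitophagy is the same disposal applied to mitochondria, which hold much of a cell's iron in heme and iron-sulfur proteins. It has a branch of receptors that sit in the outer mitochondrial membrane, Bnip3, Bnip3l (NIX) and Fundc1, and a branch in which the kinase Pink1 recruits the ubiquitin ligase parkin (*Park2*) to damaged mitochondria. Tfeb is a transcription factor for lysosomal and autophagy genes. Proximal tubule and thick ascending limb cells are rich in mitochondria, and *Bnip3* is a known target of hypoxia-inducible factor (HIF), whose breakdown requires iron.

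Sequences around a RefSeq transcript start are shown for the 3 genes whose TfR1 knockout and Control libraries did not overlap. They are shown because *Bnip3* differed from *Sqstm1* and *Fundc1* in these letters. The *Fundc1* window, however, lay wholly within that gene's GENCODE model, downstream of its 5′ end, so it is not a like region. Each window runs from 250 bases before to 50 bases after a RefSeq transcript start, 5′ to 3′ on the strand of the gene. Capitals mark the core of the HIF response element, ACGTG or GCGTG on either strand. The windows came from a RefSeq table for build GRCm38.p6 and each matched the mm9 (NCBIM37) genome exactly once, at chr7:146101140-146101439 (minus strand) for *Bnip3*, chr11:50024273-50024572 (minus strand) for *Sqstm1* and chrX:17149084-17149383 (minus strand) for *Fundc1*.
Bnip3: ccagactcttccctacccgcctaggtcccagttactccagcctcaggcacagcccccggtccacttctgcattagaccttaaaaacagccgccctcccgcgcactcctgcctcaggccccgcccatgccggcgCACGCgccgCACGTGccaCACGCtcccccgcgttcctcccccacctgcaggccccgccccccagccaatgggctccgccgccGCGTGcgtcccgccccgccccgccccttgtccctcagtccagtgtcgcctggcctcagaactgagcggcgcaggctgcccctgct
Sqstm1: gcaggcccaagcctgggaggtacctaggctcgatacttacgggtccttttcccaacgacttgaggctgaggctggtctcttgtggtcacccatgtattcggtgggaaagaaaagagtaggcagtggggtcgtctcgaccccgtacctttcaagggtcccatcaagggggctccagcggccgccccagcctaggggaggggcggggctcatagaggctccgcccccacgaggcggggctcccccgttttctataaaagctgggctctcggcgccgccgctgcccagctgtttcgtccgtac
Fundc1: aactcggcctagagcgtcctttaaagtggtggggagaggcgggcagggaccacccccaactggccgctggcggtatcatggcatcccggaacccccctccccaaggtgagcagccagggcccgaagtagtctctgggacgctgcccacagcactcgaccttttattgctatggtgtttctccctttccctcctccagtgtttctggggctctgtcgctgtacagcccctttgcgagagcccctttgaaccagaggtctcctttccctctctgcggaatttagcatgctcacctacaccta

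The *Bnip3* window held 5 matches at 4 places, whose first bases lie 117, 108, 99 and 35 bases before the start. The place at 108 also spells CACGTG, an E-box that overlaps the core and was found in 7.15% of 32841 windows of this length over all genes. The *Sqstm1* and *Fundc1* windows held no match, which says only that these letters are not in these 300 bases. For *Fundc1*, these are not the bases before the 5′ end of the GENCODE gene model. Of the other genes, *Map1lc3b* held 5 matches at 4 places, 183, 154, 96 and 64 bases before its start. *Pink1* and *Ulk1* held 1 each, 47 and 32 bases before the start, *Gabarapl1* held 0, and *Tfeb* held 1 in each of 2 of its 3 windows. In all, 6 of 10 windows for 8 of the 10 genes held the core, beside 43.8% of windows over all genes. None of the 10 windows held GTAAACA, a motif of FoxO factors found in 3.65% of all windows. A match describes the letters only.

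Levels per library are given as counts divided by the library's size factor (normalized counts). Each gene was tested with DESeq2 across all genes and called at an adjusted p under 0.05, and edgeR's quasi-likelihood test is given beside it. Library totals ran from 16591156 to 22898008 counts. TfR1 knockout replicate 2 and Control replicate 3 stood apart most often, as the highest library for 29.3% and 22.1% and the lowest for 27.9% and 23.7% of the genes tested. The targeted gene did not check the labels. *Tfrc* had 5534, 6485 and 3667 normalized counts in the Control and 6976, 4045 and 5898 in the TfR1 knockout libraries (log2 fold change 0.11, DESeq2 adjusted p = 0.853), and reads over the floxed exons were not analysed here. Kidney markers were present in every library. The 4 thick ascending limb markers (summed normalized counts 45672 to 93083 in Control, 13059 to 24875 in knockout) and the 3 distal convoluted tubule markers were all called lower by DESeq2, and 3 of each by edgeR. Of 8 proximal tubule markers, 3 were called lower and 1 higher by DESeq2, and 1 each by edgeR. Of 4 collecting duct markers, 2 were called higher by DESeq2 and 1 by edgeR. Of 10 macrophage markers, 7 were called higher by DESeq2 and 6 by edgeR.

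None of the 10 genes was called in TfR1 knockout against Control kidneys. By DESeq2, 0 of 10 passed, beside 14.9% of 16509 genes tested, and by edgeR 0 of 10, beside 6.02% of 15308 genes. At an unadjusted p under 0.05, each tool had 2 of the 10, beside 27.3% of all genes tested by DESeq2 and 25.8% by edgeR. By DESeq2 these were *Bnip3* and *Sqstm1*. Log2 fold changes were positive for 7 genes and negative for 3, with a median of 0.09 beside 0.01 over all genes tested. All knockout libraries lay above all Control libraries for 2 genes, *Bnip3* and *Sqstm1* (16.9% of all genes tested), and below them for 1, *Fundc1* (16.9%). A missed threshold does not show equal levels, since the 95% intervals of *Bnip3* and *Ulk1* reached beyond 2-fold.

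**Figure D1:**
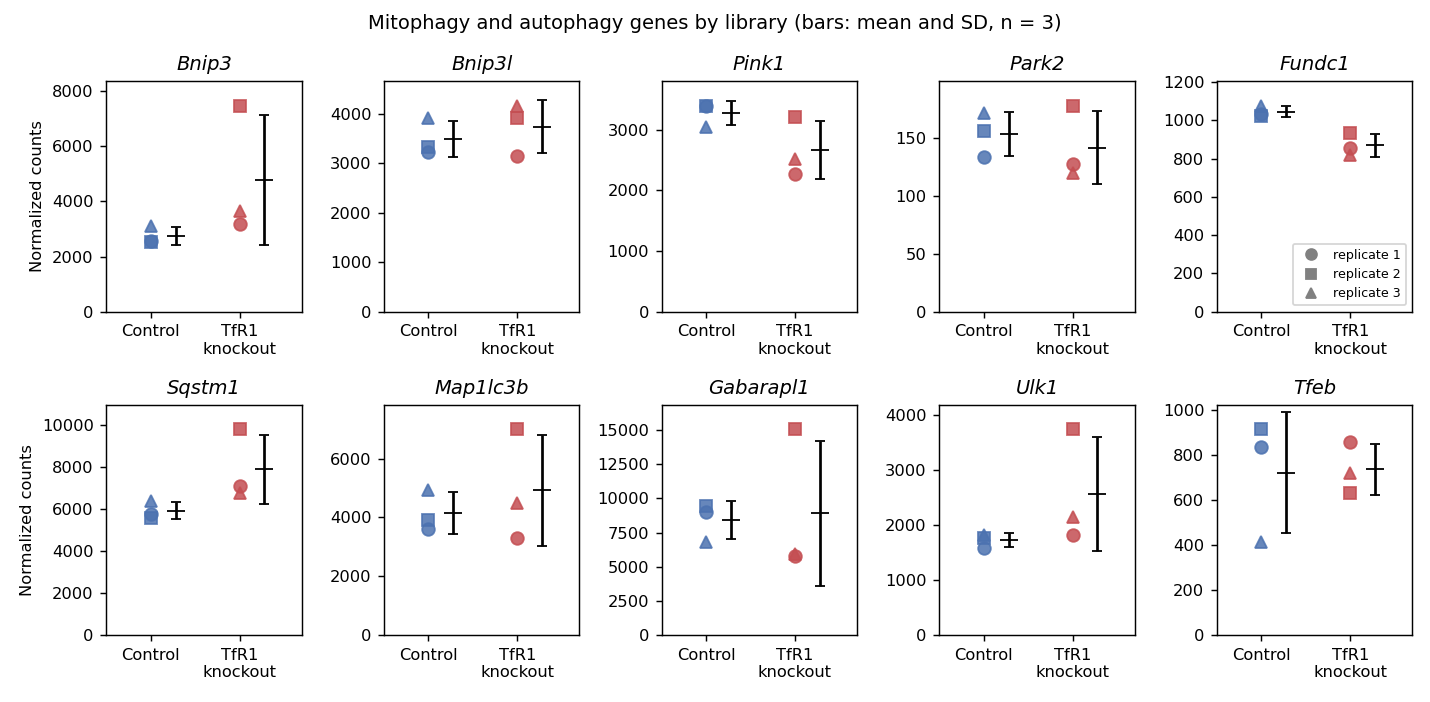
Normalized counts (vertical axes, from 0) of the 10 genes in each of the 3 Control (blue) and 3 TfR1 knockout (red) libraries, with circles, squares and triangles for replicates 1, 2 and 3 and black bars for the mean and SD (n = 3). The square of TfR1 knockout replicate 2 is the highest point in 6 panels, and the groups do not overlap for *Bnip3*, *Sqstm1* and *Fundc1*.

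The mitophagy receptors of the outer mitochondrial membrane differed from each other. *Bnip3* (chromosome 7, 146082519 to 146101202, minus strand), which binds LC3 from the mitochondrial surface and also acts in cell death, had 2562, 2527 and 3123 normalized counts in the Control libraries and 3197, 7472 and 3643 in the TfR1 knockout libraries. Every knockout library exceeded every Control library, but replicate 1 by little and replicate 2 by far. The fitted level was 1.74-fold that of Control (95% interval 1.10 to 2.75, log2 fold change 0.80, SE 0.34), and the difference did not pass the test (adjusted p = 0.0891 by DESeq2 and 0.172 by edgeR). The log2 fold change was 0.33 without TfR1 knockout replicate 2 (DESeq2 adjusted p = 0.309) and 1.02 without replicate 1, where it passed (DESeq2 adjusted p = 0.0149).

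*Bnip3l* (chromosome 14, 67604076 to 67627714, minus strand) encodes NIX, the paralog of Bnip3 that clears mitochondria from maturing red cells. It had 3230, 3327 and 3914 normalized counts in Control and 3138, 3911 and 4162 in knockout libraries, and the groups overlapped. Its fold of 1.07 had a 95% interval of 0.833 to 1.38 (DESeq2 adjusted p = 0.780). Because *Bnip3* and *Bnip3l* parted in this way, their ratio within each library was computed after the values had been seen and was not tested. Per kilobase of exon, *Bnip3* was 1.35, 1.29 and 1.36 times *Bnip3l* in the Control libraries and 1.74, 3.25 and 1.49 times in the knockout libraries. These ratios did not overlap between groups and varied more among the knockout libraries. No share over all gene pairs was computed beside them. The ratio of *Map1lc3b* to *Gabarapl1*, also computed, overlapped between groups (0.412 to 0.747 in Control, 0.479 to 0.783 in knockout libraries), as did that of *Pink1* to *Park2* below.

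*Fundc1* (chromosome X, 17133690 to 17149451, minus strand), an LC3-binding receptor of hypoxic mitophagy, ran the other way. It had 1036, 1025 and 1076 normalized counts in Control and 853, 933 and 820 in knockout libraries, so that every knockout library lay below every Control library. The fold was 0.830 (95% interval 0.683 to 1.01, log2 fold change −0.27, SE 0.14), and the difference was not called (adjusted p = 0.209 by DESeq2, 0.185 by edgeR). Its log2 fold change stayed between −0.32 and −0.22 when each library was left out in turn. With each library scaled by its total count, which also lowered the median of all genes tested to −0.10, *Fundc1* was at −0.38 and *Pink1* at −0.41, and both passed the test (DESeq2 adjusted p = 0.0437 and 0.0283).

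*Pink1* and *Park2* were not called in either direction. *Pink1* (chromosome 4, 137869324 to 137882222, minus strand), the kinase that accumulates on depolarised mitochondria, had 3392, 3380 and 3038 normalized counts in Control and 2270, 3200 and 2522 in knockout libraries. Knockout replicates 1 and 3 lay below all Control libraries and replicate 2 lay among them. The fold was 0.814 (95% interval 0.630 to 1.05, DESeq2 adjusted p = 0.314), and without replicate 2 the log2 fold change moved from −0.30 to −0.44 and passed the test (DESeq2 adjusted p = 0.0498). *Park2* (chromosome 17, 11033258 to 12254519, plus strand) was the scarcest of the 10 genes, with 134, 156 and 171 normalized counts in Control and 127, 178 and 120 in knockout libraries. The groups overlapped (fold 0.920, 95% interval 0.639 to 1.32, DESeq2 adjusted p = 0.819). Per kilobase, *Pink1* was 12.7 to 18.2 times *Park2* in the Control libraries and 12.8 to 15.0 times in the knockout libraries.

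*Sqstm1* (chromosome 11, 50012868 to 50024329, minus strand) encodes p62, the adaptor that is itself degraded with its cargo. It had 5783, 5597 and 6373 normalized counts in Control and 7094, 9786 and 6770 in knockout libraries. All knockout libraries exceeded all Control libraries, with replicate 2 the highest. The fold was 1.33 (95% interval 1.01 to 1.75, log2 fold change 0.41, SE 0.20), which was not called (adjusted p = 0.159 by DESeq2 and 0.218 by edgeR), and without knockout replicate 2 the log2 fold change was 0.23. Its exons share 580 bases, 17.3% of their length, with 3010026O09Rik on the opposite strand (157 to 320 counts per library). Strand use in counting is not given in the sources used here, so the reads of those bases are uncertain.

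**Figure D2:**
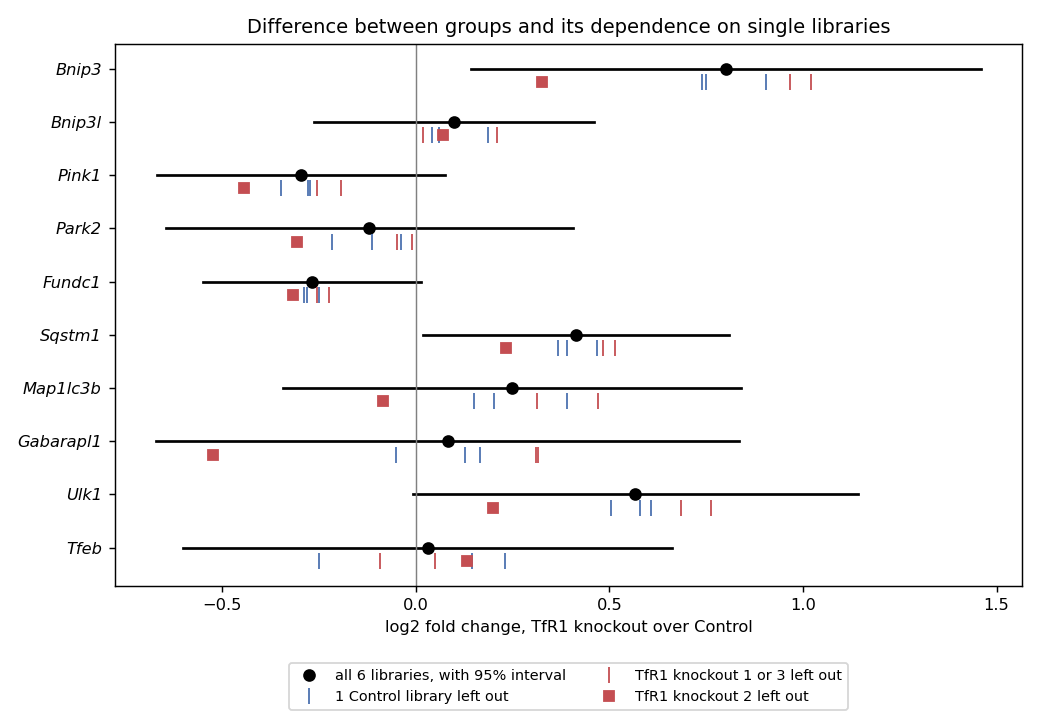
Log2 fold change of TfR1 knockout over Control (horizontal axis) for each gene, with the black point and line for all 6 libraries and the 95% interval, ticks for the value with 1 library left out, and a red square without TfR1 knockout replicate 2. The intervals of *Bnip3* and *Sqstm1* lie above 0, and leaving out that replicate moves *Gabarapl1* to −0.52 and *Map1lc3b* to −0.09.

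Of the Atg8-family genes, *Map1lc3b* and *Gabarapl1* varied strongly among the knockout libraries, and the others varied less. *Map1lc3b* (chromosome 8, 124114368 to 124121947, plus strand) had 3593, 3913 and 4935 normalized counts in Control and 3294, 6986 and 4501 in knockout libraries. Knockout replicate 1 was the lowest and replicate 2 the highest of the 6 libraries (fold 1.19, 95% interval 0.789 to 1.79, DESeq2 adjusted p = 0.639). *Gabarapl1* (chromosome 6, 129483218 to 129492349, plus strand), a GABARAP-subfamily gene that FoxO factors are known to induce, had 8984, 9439 and 6814 normalized counts in Control and 5761, 15032 and 5923 in knockout libraries. Knockout replicates 1 and 3 lay below every Control library and replicate 2 above every one. The group means were thus close (fold 1.06, 95% interval 0.628 to 1.78, DESeq2 adjusted p = 0.921) although the libraries were not. Without replicate 2 the log2 fold change was −0.52 (DESeq2 adjusted p = 0.0866). *Gabarapl1* shares 35 exon bases with 1700101I11Rik on the opposite strand, which had 14 to 25 counts per library.

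*Ulk1* (chromosome 5, 111213507 to 111239116, minus strand), the initiating kinase, had 1590, 1777 and 1831 normalized counts in Control and 1819, 3738 and 2145 in knockout libraries. Knockout replicate 1 fell among the Control libraries, replicate 3 above them and replicate 2 far above. The fold was 1.48 (95% interval 0.995 to 2.21, log2 fold change 0.57, SE 0.29), with adjusted p = 0.190 by DESeq2 and 0.226 by edgeR. The log2 fold change was 0.20 without replicate 2, and 0.76 without replicate 1, where it passed (DESeq2 adjusted p = 0.0391). *Tfeb* (chromosome 17, 47873979 to 47929368, plus strand) had 834, 913 and 413 normalized counts in Control and 856, 631 and 721 in knockout libraries. Here the Control group was the more spread, with Control replicate 3 the lowest of all, and the fold of 1.02 (95% interval 0.659 to 1.58, DESeq2 adjusted p = 0.966) had no stable sign. Without Control replicate 3 its log2 fold change was −0.25.

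Per kilobase of exon, levels in the Control kidneys ran in the order *Gabarapl1* (4766 ± 795 normalized counts per kilobase, SD, n = 3), *Map1lc3b* (2422 ± 409), *Sqstm1* (1763 ± 121), *Pink1* (1223 ± 75.3), *Bnip3* (1208 ± 148), *Bnip3l* (904 ± 95.9), *Fundc1* (448 ± 11.6), *Ulk1* (332 ± 24.2), *Tfeb* (127 ± 47.4) and *Park2* (80.3 ± 9.89). The neighbours *Pink1* and *Bnip3*, and *Tfeb* and *Park2*, differed by less than the larger SD of each pair. Their order changed by library, since *Bnip3* lay above *Pink1* in 1 of 3 Control libraries and in all 3 knockout libraries (2106 ± 1037 and 997 ± 180 in the knockout kidneys). In the knockout kidneys, neighbours among *Gabarapl1* (5045 ± 3007), *Map1lc3b* (2878 ± 1100), *Sqstm1* (2349 ± 493) and *Bnip3* differed by less than the larger SD of each pair. So did *Pink1* and *Bnip3l* (968 ± 138), and *Ulk1* (493 ± 197) and *Fundc1* (372 ± 24.8). Length was the union of all annotated exons, so transcripts that use fewer of them are understated.

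TfR1 knockout replicate 2 was the highest library for 6 of the 10 genes, *Bnip3*, *Park2*, *Sqstm1*, *Map1lc3b*, *Gabarapl1* and *Ulk1*, and for 29.3% of all genes tested. It was above the mean of the other knockout libraries by 2.57 times for *Gabarapl1*, 2.18 for *Bnip3*, 1.89 for *Ulk1* and 1.79 for *Map1lc3b*, and its ratio was 0.800 for *Tfeb*. The ratio was over 1.5 for 4 of the 10 genes, for 19.2% of the 104 further autophagy genes described below and for 12.3% of all genes tested. Summed over the 10 genes, normalized counts were 31138, 32054 and 31688 in the Control libraries, 28410 and 31327 in knockout replicates 1 and 3, and 51866 in knockout replicate 2. The Control libraries were thus nearly alike in this sum, which weighs *Gabarapl1* most, but not in single genes. Control replicate 3 was the lowest of them in *Gabarapl1* (6814) and the highest in *Map1lc3b* (4935). Among the knockout libraries, replicate 2 stood apart in the sum. Its raw counts for the 10 genes were also the highest, 40539 against 28569 to 37765 in the others. Some single abundant marker genes were also highest in that library. *Ndrg1*, a HIF target, had 99033 normalized counts there, against 33888 and 54435 in the other knockout libraries, and the collecting duct water channel *Aqp2* had 50719, against 17805 and 23564. *Ttr*, transthyretin, had 15134, against 8254 and 4038. *Slc27a2* of the proximal tubule had 47049, against 13431 and 19958. Other markers were lowest of the 6 libraries there, among them *Slc34a1* of the proximal tubule (15737), *Col3a1* of stroma (9821) and *Hsd11b2* of the collecting duct (1176). Without *Slc34a1*, the proximal tubule markers summed to 79619 there and to 51480 and 43513 in knockout replicates 1 and 3. Summed, the lists around *Ndrg1*, *Aqp2* and *Ttr* were each highest in knockout replicate 2 (139747, 59101 and 15664 normalized counts). Gene by gene, they were not all highest there. Knockout replicate 2 was the highest library for 1 of 10 HIF targets and 2 of 4 collecting duct markers. Of 6 liver, heart and brain genes it was the highest for 3. Without *Ndrg1*, left out after the values had been seen, the HIF targets summed to 40713 in knockout replicate 2 and to 55219 and 48872 in replicates 1 and 3. Without *Aqp2*, left out likewise, the collecting duct markers summed to 8381 there and to 12365 and 9369 in replicates 1 and 3. Without *Ttr*, the liver, heart and brain genes summed to 530 there and to 516 and 157 in replicates 1 and 3. The part of any of these in the levels of the 10 genes was not tested.

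**Figure D3:**
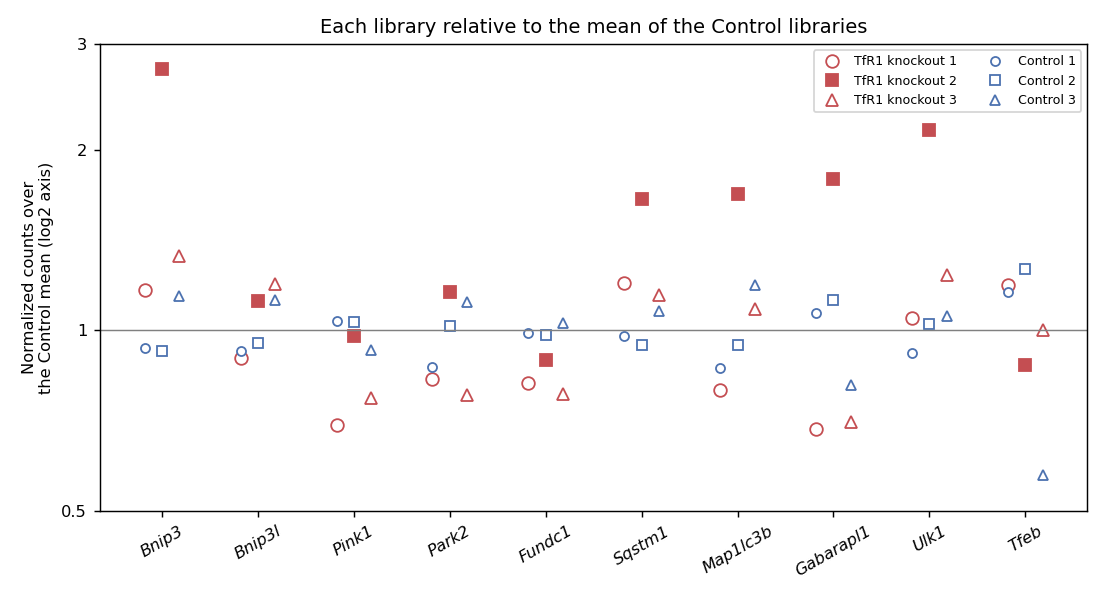
Normalized counts of each gene in each library divided by the mean of the 3 Control libraries (vertical log2 axis, 1 is the Control mean), with red for TfR1 knockout, blue for Control and filled squares for TfR1 knockout replicate 2. The filled squares lie above all other points for *Bnip3*, *Park2*, *Sqstm1*, *Map1lc3b*, *Gabarapl1* and *Ulk1*, and the lowest point is *Tfeb* in Control replicate 3.

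A wider set of 104 autophagy and lysosome genes in 11 lists, the 10 genes left out, gave 13 calls by DESeq2 (12.5%, beside 14.9% of all genes), 10 higher and 3 lower in TfR1 knockout kidneys. edgeR called 3 of them (2.88%, beside 6.02%), *Ctsd*, *Ctss* and *Atg9b*. Log2 fold changes were positive for 73 and negative for 31, with a median of 0.12. Over all genes tested, 8373 were positive and 8136 negative, with a median of 0.01. TfR1 knockout replicate 2 was the highest library for 61 of the 104 (58.7%), beside 29.3% of all genes tested. Calls by list below are those of DESeq2 unless edgeR is named, and stand beside the same 14.9% of all genes. No gene was called among the other initiation complex genes (0 of 4), the phosphatidylinositol 3-kinase complex around *Becn1* (0 of 7), the other Atg8-family genes (0 of 3), the other genes of the Pink1 and parkin list (0 of 11) or the fusion of autophagosomes with lysosomes (0 of 13).

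Of the 11 conjugation enzymes, which attach Atg8-family proteins to the membrane, 1 rose and 1 fell. *Atg4a*, a protease that trims Atg8-family proteins, had 442, 473 and 531 normalized counts in Control and 652, 1223 and 782 in knockout libraries (log2 fold change 0.88, SE 0.28, adjusted p = 0.0149 by DESeq2 and 0.0761 by edgeR). *Atg10*, the conjugating enzyme for Atg12, had 268, 284 and 228 in Control and 190, 134 and 154 in knockout libraries (−0.70, SE 0.24, adjusted p = 0.0249 and 0.0972). The call of *Atg4a* was lost without Control replicate 1 or 2, and that of *Atg10* without those or knockout replicate 2 or 3. Of 8 genes of Atg9 vesicles and lipid transfer 1 rose. It was *Atg9b*, with 9.07, 14.5 and 19.4 normalized counts in Control and 86.5, 78.0 and 60.5 in knockout libraries (log2 fold change 2.41, SE 0.44, adjusted p = 1.93e-06 by DESeq2 and 0.0178 by edgeR). It lies under the level set for naming and is named after its values were seen, and it shares 294 exon bases with *Nos3* on the opposite strand, which had 731 to 1329 counts per library, so its counts are uncertain.

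Among the receptors, 1 of 7 other cargo receptors and 1 of 5 other mitophagy receptors rose. *Optn*, optineurin, a ubiquitin-binding receptor that also serves the Pink1 and parkin branch and was listed with the cargo receptors, had 603, 645 and 634 normalized counts in Control and 886, 1108 and 866 in knockout libraries, with no overlap (log2 fold change 0.60, SE 0.18, adjusted p = 0.0078 by DESeq2 and 0.0551 by edgeR), and the call was lost without Control replicate 1 or 2. *Bcl2l13*, an LC3-binding protein of the outer mitochondrial membrane, had 1193, 1332 and 1132 in Control and 1440, 2147 and 1805 in knockout libraries (0.56, SE 0.21, adjusted p = 0.0469 and 0.0945). Of the fits that left out 1 library, the one without knockout replicate 1 kept its call. *Bcl2l13* shares 628 exon bases, 9.06% of their length, with *Bid* on the opposite strand. *Bid* had 557 to 1287 counts per library and was itself called lower (log2 fold change −0.70, DESeq2 adjusted p = 0.0243). The reads of the shared bases are thus uncertain. *Ncoa4*, the receptor that delivers ferritin to the lysosome and so frees stored iron, was not called. It had 3477, 3745 and 3741 in Control and 3502, 10728 and 4804 in knockout libraries (log2 fold change 0.80, SE 0.39, adjusted p = 0.155 by DESeq2 and 0.239 by edgeR). Knockout replicate 1 lay among the Control libraries, and the log2 fold change was 0.19 without replicate 2 and 1.09 without replicate 1, where it passed (DESeq2 adjusted p = 0.0121).

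Of the other 15 genes of the MiT-TFE factors and nutrient sensing, 3 rose and 0 fell by DESeq2, beside 14.9% of all genes called. edgeR called 0, with an unadjusted p under 0.05 for 6 of the 15, beside 25.8% of all genes. *Foxo3*, a transcription factor for autophagy genes, had 406, 384 and 328 normalized counts in Control and 484, 1146 and 566 in knockout libraries (log2 fold change 0.97, SE 0.35, adjusted p = 0.0386 by DESeq2 and 0.118 by edgeR), and the call was lost without any 1 Control library and without knockout replicate 2, where it was 0.50. *Rragd*, a GTPase that brings mTORC1 to the lysosome and a known Tfeb target, had 1377, 1572 and 992 in Control and 2305, 1955 and 1840 in knockout libraries (0.63, SE 0.23, adjusted p = 0.0417 and 0.100). *Mtor*, the kinase that restrains autophagy when nutrients are plentiful, had 1597, 1618 and 1387 in Control and 2113, 2179 and 2030 in knockout libraries (0.46, SE 0.14, adjusted p = 0.0159 and 0.0715). Of the 6 fits that left out a library, only that without Control replicate 2 kept the call of *Rragd* and only that without Control replicate 3 that of *Mtor*.

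The lysosome list held the largest change of the wider set. By DESeq2, 3 of its 20 genes were higher and 2 lower, beside 14.9% of all genes called. edgeR called 2 of the 20, beside 6.02%. *Ctsd*, cathepsin D, had 13483, 15308 and 14046 normalized counts in Control and 43326, 45456 and 33090 in knockout libraries (log2 fold change 1.51, SE 0.18, adjusted p = 3.27e-14 by DESeq2 and 0.0123 by edgeR). *Ctss*, cathepsin S, which is abundant in macrophages, had 102, 105 and 209 in Control and 836, 1085 and 542 in knockout libraries (2.57, SE 0.37, adjusted p = 7.53e-10 and 0.0131). In both, every knockout library was above every Control library by far, and both kept their call without any 1 library. The 10 macrophage markers summed to 2821 to 4781 normalized counts in Control and 7971 to 10184 in knockout libraries, and their part in these changes was not tested. *Gla*, alpha-galactosidase A, had 162, 173 and 209 in Control and 310, 334 and 281 in knockout libraries (0.77, SE 0.21, adjusted p = 0.0039 by DESeq2 and 0.0634 by edgeR), with the call lost without Control replicate 1 or 2.

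Among the lysosomal genes that fell, *Ctsl*, cathepsin L, had 21454, 22189 and 25996 normalized counts in Control and 10118, 19214 and 11648 in knockout libraries (log2 fold change −0.77, SE 0.27, adjusted p = 0.0383 by DESeq2 and 0.125 by edgeR). Knockout replicate 2 was again the highest of its group, and −1.09 was reached without it, the 1 of 6 such fits that kept the call. The membrane proteins *Lamp1* (log2 fold change 0.19) and *Lamp2* (0.11) and cathepsin B (*Ctsb*, 0.10) were not called.

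**Figure D4:**
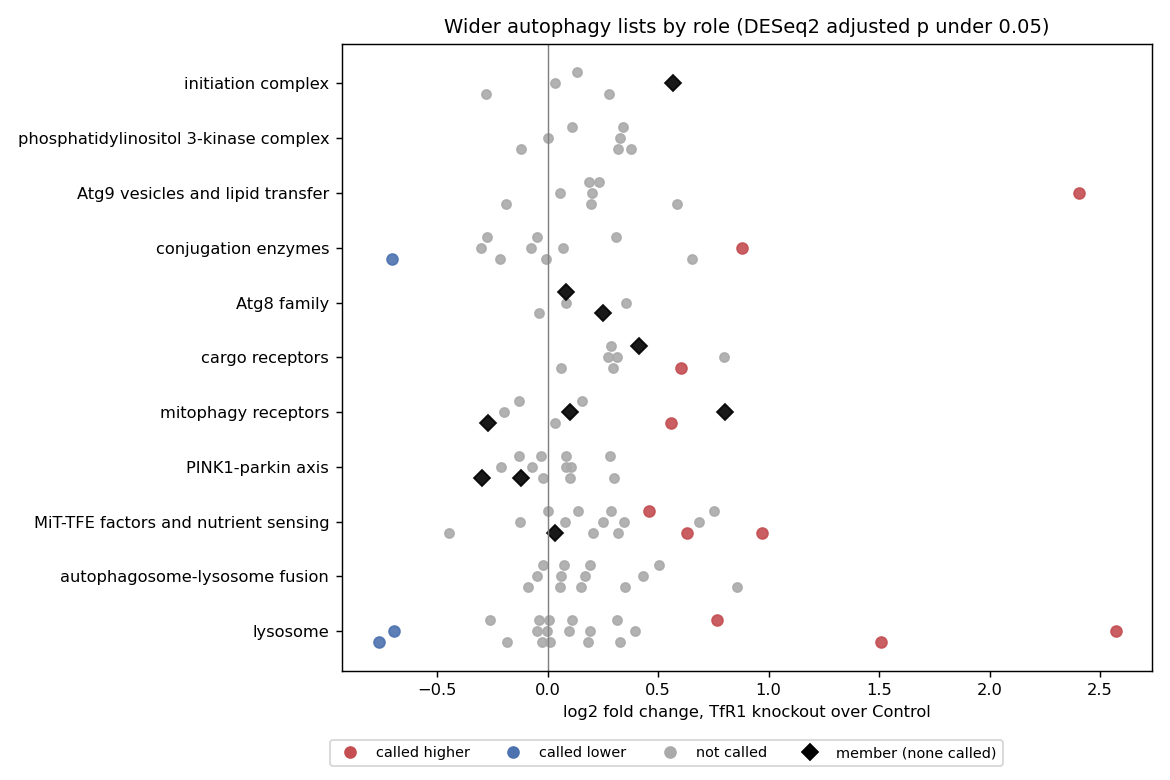
Log2 fold change of TfR1 knockout over Control (horizontal axis) for every gene of the 11 autophagy and lysosome lists (rows), with red for called higher, blue for called lower, grey for not called and black diamonds for the 10 genes chosen by name. The diamonds lie between −0.30 and 0.80 and none was called, and the points farthest to the right are *Ctss*, *Atg9b* and *Ctsd*.

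Beside *Bnip3*, which is itself a HIF target, a separate list of 10 HIF targets was read. By DESeq2, 4 were higher and 1, *Car9*, lower, beside 14.9% of all genes called in either direction. By edgeR, 0 were higher and 1 lower, beside 6.02%, and 5 had an unadjusted p under 0.05, beside 25.8%. Their summed levels were 45507 to 62401 normalized counts in Control and 89107 to 139747 in knockout libraries, and without *Ndrg1*, the most abundant, 29870 to 37226 and 40713 to 55219. Neither sum overlapped between groups, and sums weigh the most abundant genes most. Taken singly, 4 of the 10 had all knockout libraries above all Control libraries and 1 below, beside 16.9% of all genes tested in each direction. The others overlapped, among them *Pdk1* (log2 fold change −0.003). The part of these levels in that of *Bnip3* was not tested.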

How the data were processed

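Poly-A RNA of 3 Control and 3 TfR1 knockout kidneys was sequenced single-end. Per the labels and the study's methods, the authors trimmed reads with Trimmomatic, aligned them to mm9 with TopHat2 2.0.11 (base calls with CASAVA 1.8.2, per the submitters' processing notes), kept reads with a unique alignment and counted them per gene with HTSeq. The deposited values are these raw counts. Unique counting lowers genes with near-identical copies. Strand use and the annotation are not given in the sources used here. Here, DESeq2 1.42.0 in R 4.3.3 (Wald test, median-ratio size factors, no covariate, Benjamini-Hochberg adjustment, independent filtering at 0.05) was run on all genes. edgeR 4.0.16 (quasi-likelihood, TMM) and limma 3.58.1 (voom) were alternatives, with other scalings, filters, a replicate block and each library left out. The code was tested on simulated data. The 10 genes, the lists and the rules were chosen with earlier results of these data known. All 10 were named, with *Ncoa4*, *Tfrc* and, from each list, up to 4 called genes in each direction with the largest fold change and a mean of at least 100 normalized counts. The values of 1 gene that this rule names are not reported here. Groups and replicate numbers came from the labels, which call the samples biological replicates without tying each to an animal, so p-values measure the spread between these samples. At 16591156 counts or more per library, counting error is small for the abundant genes, and 3 libraries a group set the precision. It is larger for scarce genes, such as *Park2* (127 to 172 counts) and *Atg9b* (11, 16 and 18 counts in Control). Positions came from GENCODE for NCBIM37, where *Tfeb* stands under an older symbol (9 of 10 matched directly) and *Park2* has 2 gene models. RefSeq promoter windows were at hand for 8 of 10 genes. In the deposited tables every column was matched to a sample.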

Additional observations from a re-analysis of the deposited data

How the results depend on the processing

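The 10 genes gave 0 calls under edgeR, limma-voom, upper-quartile scaling, independent or outlier filtering off, a minimum of 10 counts in 3 libraries and a fold of at least 2. They gave 2 under total-count scaling (*Pink1* and *Fundc1*), which moved the median log2 fold change of all genes tested from 0.01 to −0.10, and 0 to 2 when each library was left out. Over the alternatives for single genes, 124 values for the 10 genes kept direction and side of the threshold, 5 gained a call and 11 changed sign. The wider set gave 3 calls under edgeR, limma-voom and a fold of at least 2, against 13, and 3 to 19 with each library left out (3 without Control replicate 1, 4 without Control replicate 2, 7 without TfR1 knockout replicate 2 or 3). All genes gave 921 under edgeR, 941 under limma-voom and 1464 at a fold of at least 2, against 2463, and 1239 to 3205 with each library left out. Signs changed for *Bnip3l* (−0.012 under total-count scaling), *Gabarapl1* (−0.051 under limma-voom, −0.069 under total-count scaling, −0.52 to 0.32 with each library left out) and *Tfeb* (−0.050 under total-count scaling, −0.0063 under upper-quartile scaling, −0.25 to 0.23 with each library left out). With each library left out, *Map1lc3b* ran from −0.085 to 0.47 and *Tfrc* from −0.095 to 0.30. The cause was not tested. With the replicate number as a block, the 10 genes gave 0 calls, the wider set 9 and all genes 2172, and *Gabarapl1* was at −0.060. Same-numbered samples deviated together with correlations of 0.01, 0.07 and 0.15. With 3 libraries a group, these values cannot exclude a pairing, and the labels give only a shared number.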
